A study of Ctenopharyngodon idella with 6 samples.

Results

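miR-143 and miR-145 were examined in plasma exosomes of grass carp (Ctenopharyngodon idella), across every known miRNA entry whose family is exactly miR-143 or miR-145, whatever the species prefix, letter or arm. This rule took 27 of the 2925 entries, 11 of miR-143 and 16 of miR-145, under 16 of the 157 species prefixes that the entries carry. Many of these names held the same value in every library, so the 27 entries came down to 10 distinct sets of values. Large (fast-growing) fish were compared with small (slow-growing) fish. Both were 10 months old and came from the same high-density culture of 9 months, with no treatment named for either. Libraries L1, L2 and L3 were each made from the pooled plasma of 2 large fish (6 fish in all), and libraries S1, S2 and S3 from the pooled plasma of 5 small fish (15 fish in all). Pool size followed fish size in every library, so pool size and fish size cannot be told apart. The p values measure the spread between 3 pools in each group.

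In mammals, miR-143 and miR-145 lie next to each other and are transcribed together, most strongly in smooth muscle cells of vessels and gut, where serum response factor and myocardin drive them. Their known targets there include regulators of the actin cytoskeleton and of the switch from a contractile to a proliferating state. In zebrafish the pair is known from smooth muscle of the gut and from mural cells. A mature miRNA finds its targets mainly through the seed, bases 2 to 8 from its 5′ end, and of the 2 arms of a hairpin one is usually kept in far greater amount than the other. The place of the genes in the grass carp genome was not analysed here. Smooth muscle has no miRNA family that other cells lack, so the source of the exosomal copies could not be checked against defining markers, and the entries are called by their family numbers.

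The sequences below were deposited with the entries and show how the names of each arm differ, with the seed in capitals. The abundant arms come first.
ola-miR-143: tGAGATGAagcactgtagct
efu-miR-143: gTCTGAGAtgaagcactgtagctc
pma-miR-143-3p: tGAGATGAagcactgtaactcc
dre-miR-145-5p: gTCCAGTTttcccaggaatccc
ola-miR-145: tCCAGTTTtcccaggaat
oan-miR-145-5p: gTCCAGTTttcccaggaat
xla-miR-145-5p: cAGTTTTCccaggaatcc
mmu-miR-145b: gTCCAGTTttcccaggagact
hsa-miR-143-5p: gGTGCAGTgctgcatctctggt
hsa-miR-145-3p: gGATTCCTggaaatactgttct

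The 3p arm of miR-143 had the seed GAGATGA in 5 of its 6 names. The sixth, the bat name efu-miR-143, begins 3 bases earlier and so has another seed by position, although the 20 bases it shares with the medaka name ola-miR-143 have no mismatch. The sea lamprey name pma-miR-143-3p differs from ola-miR-143 by G18A, counted from the 5′ end of ola-miR-143. The 5p arm of miR-145 had the seed TCCAGTT in 7 of its 9 names. The mouse name mmu-miR-145b differs from the zebrafish name dre-miR-145-5p by A18G, T19A and C21T, all outside the seed. No entry outside miR-143 and miR-145 carried the seed of either abundant arm. The only seed shared with another family was GATTCCT, held by 3 names of miR-145-3p and by 3 entries of miR-23a-5p, which reached at most 10.2 CPM in any library.

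Values are counts per 1000000 miRNA counts of a library (CPM), not scaled by length. Library totals ranged from 5272418 to 7660938 counts in large fish and from 6684107 to 11524535 counts in small fish, and 1 count was worth 0.0868 to 0.190 CPM. A read that stands under several names enters these totals once for each name, so CPM are not shares of distinct molecules. For a count of 0 the limit was set at 3 counts, which is 0.569 CPM in L1 and 0.260 CPM in S2 and covers counting error only. The upper end of the 2-sided 95% exact Poisson interval of a count of 0 is 0.700 CPM in L1. Of the 27 entries, 25 entered the test, having 1 CPM or more in 3 or more libraries. Each of the 25 had at least 2.47 CPM in all 6 libraries, so none passed this filter through the small fish alone. The entries left out were mmu-miR-145b and xla-miR-145-5p.

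All 4 mature arms were lower in plasma exosomes of large fish. The log2 fold change, large minus small fish on the log2(CPM + 1) scale, was -1.31 for the main arm of miR-143 and -1.32 for that of miR-145. After quantile normalization these were -1.23 for efu-miR-143 and -0.79 for dre-miR-145-5p. For the same names, TMM scaling gave -1.06 and -1.07, edgeR -1.04 and -1.12, and DESeq2 -0.99 and -1.07. An entry was called where limma gave an adjusted p no higher than 0.05 (Benjamini-Hochberg, over all 1807 tested entries) with a fold of 1.5 or more. By this rule 25 of the 25 tested entries were called lower, 11 of miR-143 and 14 of miR-145. Over all tested entries, 14.2% were called lower. In all 25 entries, every large fish library lay below every small fish library, which was so for 29.6% of all tested entries. The 25 entries held 8 distinct sets of values, and with identical entries counted once all 8 were called lower, against 14.8% of the 968 distinct sets tested. Some of these sets share nearly all their counts, as given below. The 8 are therefore readings of the 4 arms and not 8 separate measurements.

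The 3p arm of miR-143 was the most abundant of the 4. Under ola-miR-143 it had 1083, 1389 and 1776 CPM in L1, L2 and L3, against 3079, 3828 and 3450 CPM in S1, S2 and S3. The groups did not overlap, L1 was lowest of all libraries and S2 highest. It averaged 1416 ± 347 CPM in large fish and 3452 ± 375 CPM in small fish (SD, n = 3 pools each), with a log2 fold change of -1.31 (SE 0.235, limma adjusted p = 0.0202). The same values stood under 4 names. The longer efu-miR-143 held 2 counts more in L1 and in S2 and was otherwise equal.

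With this arm, miR-143 ranked high among the miRNAs of the exosomes. Each family was ranked by its most abundant entry, over 438 families. miR-143 ranked 23, 20 and 18 in L1, L2 and L3, against 14, 10 and 13 in S1, S2 and S3. A rank within a library does not depend on how libraries are scaled, but it also moves when other families rise or fall. How many of the 438 families had ranks without overlap between the groups was not counted. This arm made up 0.108% to 0.178% of the counts summed over all names in large fish, against 0.308% to 0.383% in small fish. Since reads recur under several names in that sum, the share of miRNA molecules is not known from it.

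The lamprey name pma-miR-143-3p, with its 1 mismatch to ola-miR-143, held 96.3% to 98.0% of the CPM of ola-miR-143 in each library. It had 1057, 1362 and 1736 CPM in large fish, against 3001, 3685 and 3349 CPM in small fish. Most counts were therefore entered under both names, and the 3p names of miR-143 are readings of 1 pool of counts and not separate measurements. The call for pma-miR-143-3p (log2 fold change -1.30, SE 0.234, adjusted p = 0.0202) adds no independent evidence.

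The 5p arm of miR-143, the minor strand, was rare and was also lower in large fish. Its 5 names, among them hsa-miR-143-5p, held 13, 23 and 28 counts in L1, L2 and L3, against 87, 138 and 80 counts in S1, S2 and S3. In CPM these are 2.47, 3.002 and 4.30 for large fish, against 13.02, 11.97 and 10.8 for small fish. The highest large fish library, L3, had less than the lowest small fish library, S3, and their 95% exact Poisson intervals, 2.86 to 6.21 CPM for L3 and 8.53 to 13.4 CPM for S3, did not overlap. It averaged 3.25 ± 0.941 CPM in large fish, against 11.9 ± 1.13 CPM in small fish, with a log2 fold change of -1.62 (SE 0.258, adjusted p = 0.0181). For so rare an arm this value moves with what is added before the log: it was -1.87 with 0.1 CPM added and -0.73 with 10 CPM added, where efu-miR-143 had -1.31 and -1.30. Its place among the 4 arms therefore depends on the setting.

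The 5p arm of miR-145 was the second most abundant of the 4 arms, at a level well under that of miR-143. Under dre-miR-145-5p and 4 other names it had 54.2, 57.2 and 71.5 CPM in large fish, against 122, 211 and 137 CPM in small fish. S2 stood apart within the small fish, while the 3 large fish libraries lay close together. It averaged 61.0 ± 9.24 CPM in large fish, against 157 ± 47.8 CPM in small fish, with a log2 fold change of -1.32 (SE 0.271, adjusted p = 0.0218). Its spread was 15.2% of the mean in large fish and 30.5% in small fish, the opposite order to the 3p arm of miR-143, with 24.5% in large fish and 10.9% in small fish. The family ranked 74, 70 and 67 of 438 in L1, L2 and L3, against 63, 52 and 64 in S1, S2 and S3.

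The 5p names of miR-145 did not share counts evenly. The medaka name ola-miR-145, which is 18 bases long and lies inside dre-miR-145-5p, held the same counts but for 1 in S2. The platypus name oan-miR-145-5p, made of the first 19 bases of dre-miR-145-5p, held 13.6% to 19.4% of its CPM. How reads were shared among names of unequal length is not given in the sources used here. oan-miR-145-5p had 7.397, 11.1 and 13.04 CPM in large fish, against 20.3, 34.9 and 25.5 CPM in small fish, again without overlap (log2 fold change -1.28, SE 0.306, adjusted p = 0.0340).

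The names left out of the test were close to the limit of detection. mmu-miR-145b had 1, 2 and 0 counts in L1, L2 and L3, against 5, 5 and 6 counts in S1, S2 and S3. The frog name xla-miR-145-5p, which begins 3 bases after dre-miR-145-5p, had 0, 8 and 0 counts in large fish and 0, 2 and 2 counts in small fish. It is the only one of the 10 sets whose mean was higher in large fish, and that mean rests on L2 alone. For mmu-miR-145b every large fish library lay below every small fish library in CPM. For both names, however, the 95% exact Poisson interval of every large fish library overlapped that of every small fish library. At these counts no difference was therefore read.

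The 3p arm of miR-145, the minor strand of that hairpin, was called lower under all 7 of its names. It had 6.83, 6.004 and 8.13 CPM in L1, L2 and L3, against 12.6, 22.0 and 16.7 CPM in S1, S2 and S3. These rest on 36, 46 and 53 counts in large fish and 84, 253 and 124 counts in small fish. The groups did not overlap and S2 was again the highest library. It averaged 6.99 ± 1.07 CPM in large fish, against 17.1 ± 4.71 CPM in small fish, with a log2 fold change of -1.15 (aca-miR-145-3p, SE 0.276, adjusted p = 0.0340).

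**Figure D1:**
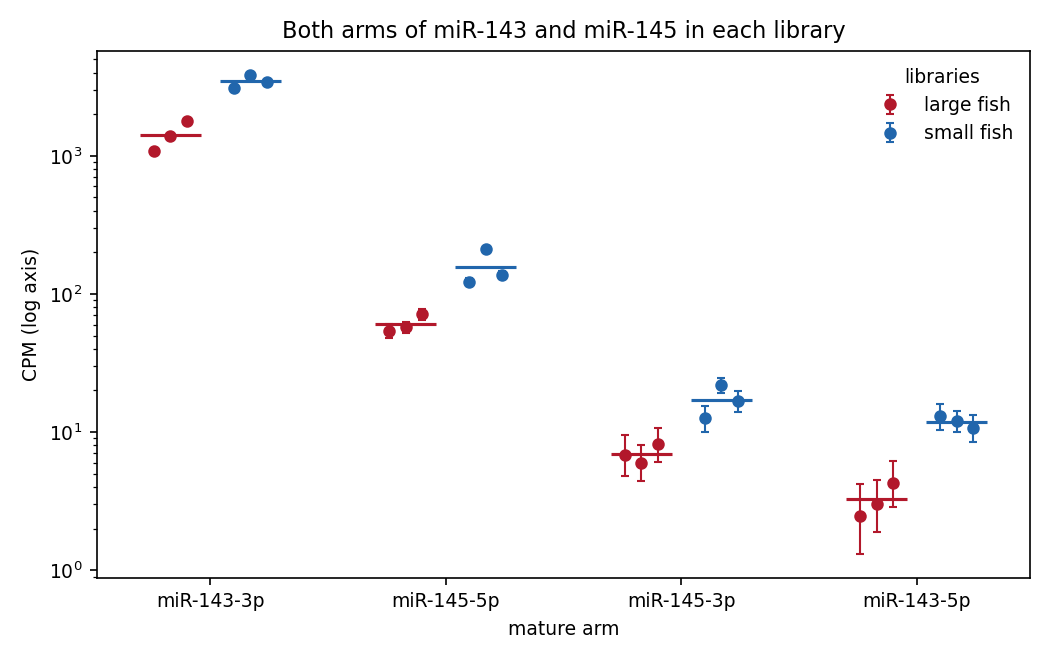
CPM on a log axis of the 4 mature arms in each library, large fish left of small fish within each arm; points are libraries in the order L1 to L3 and S1 to S3, bars are 95% exact Poisson intervals of the counts, and horizontal lines are group means. The groups do not overlap in any arm, from 1416 against 3452 CPM for miR-143-3p down to 3.25 against 11.9 CPM for miR-143-5p.

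The order of libraries within a group was the same for the main arms of both partners: L1 was lowest and L3 highest among large fish, and S1 lowest and S2 highest among small fish. In small fish this is also the order of the library totals, and in large fish it is not, since L2 had the largest total. Across the 6 libraries, log2(CPM + 1) of miR-143-3p and miR-145-5p had a Pearson correlation of 0.96. It was 0.73 after the group means were taken away. Other families ran closer to miR-143: miR-133 had 0.99, and 0.95 with the group means taken away. By that second measure miR-26, miR-206, miR-152 and miR-148 also exceeded miR-145-5p. For miR-145 no other ranked family exceeded miR-143, the first being miR-133 at 0.95 and 0.69. The arms of 1 hairpin gave 0.98 for miR-143 and 0.99 for miR-145, and 0.76 and 0.92 after the group means were taken away. All values in a library share its total, and 6 libraries give these only as a description.

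Ratios within a library do not depend on the scaling between libraries, and 3 of them were compared between the groups, with p values adjusted over the 3. The first asks whether the partners kept their proportion. miR-143-3p, under efu-miR-143, outnumbered miR-145-5p by 19.97, 24.3 and 24.8 to 1 in L1, L2 and L3, against 25.3, 18.1 and 25.1 to 1 in S1, S2 and S3. The groups overlapped, and the ratio averaged 23.0 ± 2.67 in large fish, against 22.9 ± 4.09 in small fish. The difference of mean log2 ratios was 0.02 (2-sided exact permutation test, p = 1, adjusted p = 1), and with 1 library left out it ran from -0.14 to 0.12, being below 0 without L2, L3 or S2. The spread within each group was larger than the difference between them. The 95% exact binomial interval was 17.4 to 18.9 in S2, under those of S1 (23.6 to 27.2) and S3 (23.6 to 26.8).

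The second ratio is that of the arms of miR-145. The 5p arm outnumbered the 3p arm by 7.94, 9.52 and 8.79 to 1 in large fish, against 9.68, 9.61 and 8.23 to 1 in small fish. These overlapped, averaging 8.75 ± 0.789 in large fish against 9.18 ± 0.816 in small fish, with a difference of -0.07 in mean log2 ratio (2-sided exact permutation test, p = 0.5, adjusted p = 0.75). The 3p arm made up 9.50% to 11.2% of the counts of both arms in large fish and 9.36% to 10.8% in small fish.

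The third ratio, that of the arms of miR-143, did not overlap between the groups. The 3p arm outnumbered the 5p arm by 439, 463 and 413 to 1 in L1, L2 and L3, against 237, 320 and 321 to 1 in S1, S2 and S3. The mean ratio was 438 ± 24.8 in large fish and 292 ± 48.4 in small fish. The mean log2 ratio was higher by 0.60 in large fish, which is a fold of 1.51. The 2-sided exact permutation test gave p = 0.1, and no smaller p can arise with 3 libraries a group. It was 0.3 after adjustment over the 3 ratios. With 1 CPM added to both arms the log2 difference was 0.31, since the 5p arm rests on 13 to 28 counts in large fish. The 95% exact binomial intervals of single libraries were wide, from 257 to 826 in L1 and from 286 to 622 in L3. Both overlapped those of S1 (192 to 295), S2 (271 to 381) and S3 (258 to 405). That of L2 (308 to 730) lay above that of S1 and overlapped those of S2 and S3.

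**Figure D2:**
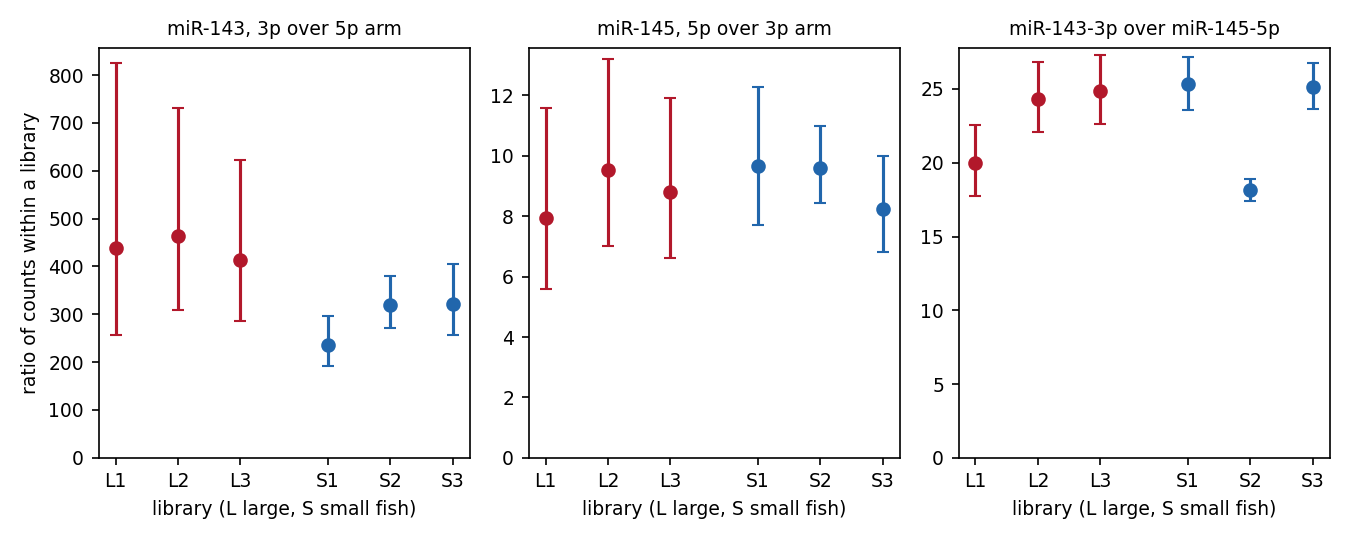
Ratio of counts within each library, with the 3 large fish libraries left of the 3 small fish libraries; bars are 95% exact binomial intervals and all axes start at 0. The 3p to 5p ratio of miR-143 lies at 413 to 463 in large fish and at 237 to 321 in small fish, while the miR-145 arm ratio and the ratio of miR-143-3p to miR-145-5p overlap between the groups.

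Against all tested entries, the difference of the pair was moderate in size. The median log2 fold change of the 25 entries was -1.31, with a range of -1.62 to -1.15, beside a median of -0.26 over all 1807 tested entries. Relative to that median the entries stood at -1.05. TMM scaling moved the median of all entries to -0.05 and quantile normalization to 0.09. The 25 entries stayed below 0 under both, as in each of the 17 alternatives that fitted them, with log2 fold changes from -1.87 to -0.66. Among the 149 families tested, ranked from the lowest log2 fold change, miR-145 was 26th and miR-143 27th.

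**Figure D3:**
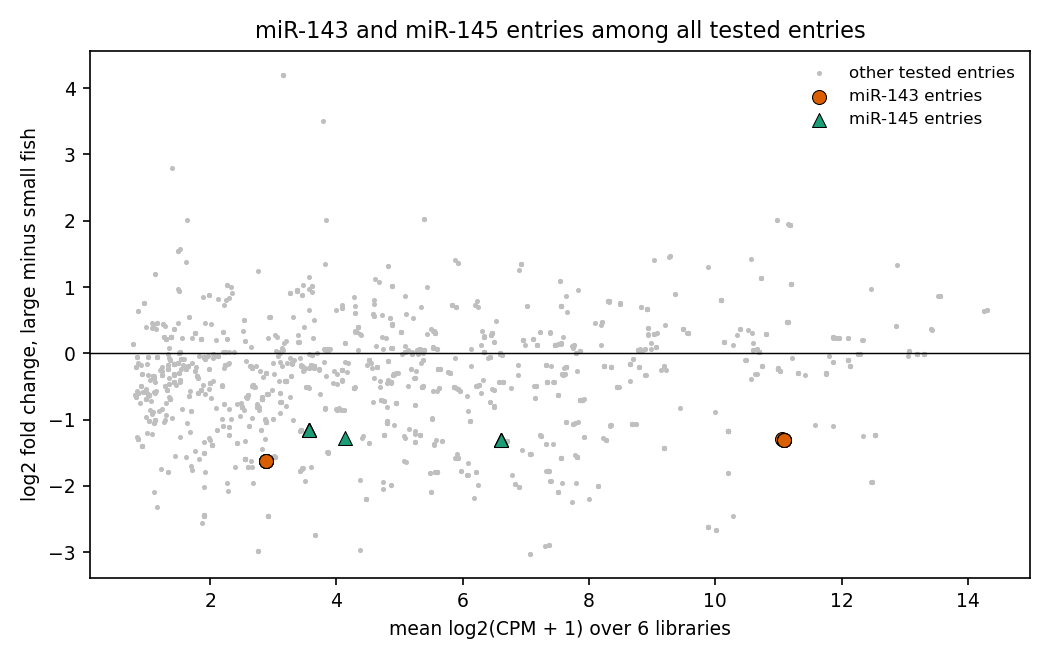
Log2 fold change, large minus small fish, against mean log2(CPM + 1) for every tested entry; circles are miR-143 entries, triangles miR-145 entries and grey points all others, and names with the same values lie on each other. The 25 entries lie between -1.62 and -1.15 at both low and high levels, inside the range of the other entries.

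The number of calls moved with the libraries and the test, over all entries as well as over these 25. edgeR's quasi-likelihood test on the recovered counts called lower 5 of the 25 entries, the 5 names of miR-143-5p, where it called lower 1.22% of all tested entries. The adjusted p of the 25 lay between 0.0452 and 0.0764 there. Without L1, without L2 or without S3, limma called 0 of the 25. Their adjusted p was 0.0640 to 0.0921, 0.0556 to 0.0724 and 0.0888 to 0.108, and no other tool was run on these subsets. Few entries of any family were called lower there: 3 of 1783 (0.168%) without L1, 0 of 1779 without L2 and 10 of 1739 (0.575%) without S3. Without S2 limma called 17 of the 25, and 8.55% of all entries tested.

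Other families were set beside the pair, each by its most abundant entry unless other entries are named. Among families known from mesenchyme, 1 of 4 was called lower, with a median log2 fold change of -0.97 over the list, beside -0.21 over all 149 families, of which 25 were called lower and 7 higher. Over all tested entries of the list, 8 of 77 were called lower and 0 higher, beside 257 lower and 51 higher of all 1807 tested entries. The family called was miR-199, abundant in fibroblasts, with 3430, 2574 and 6558 CPM in large fish against 8553, 9164 and 9708 CPM in small fish (log2 fold change -1.24, SE 0.340, adjusted p = 0.0479). miR-214, transcribed with a miR-199 gene in vertebrates, had -1.33 but missed the threshold (SE 0.436, adjusted p = 0.0787). The groups did not overlap in these entries of miR-199 and miR-214. The miR-199 entry was of the 3p arm, and not all abundant names of the family were called. Not called were bta-miR-199a-5p (-1.17, limma adjusted p = 0.0745) and mdo-miR-199b-3p (-1.10, limma adjusted p = 0.0581). miR-140, of cartilage, had -0.20, and miR-455 had -0.71, neither called.

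Among 7 families studied in vascular smooth muscle of mammals, miR-204 was the only one whose most abundant entry was called, and the median log2 fold change of the list was -0.33. miR-204, in mammals also abundant in the pigment epithelium of the eye and in the choroid plexus, averaged 61.8 ± 18.9 CPM in large fish and 484 ± 216 CPM in small fish (-2.89, SE 0.402, adjusted p = 0.0138). miR-21, which is raised in injured mammalian vessels, had 0.65 (adjusted p = 0.151), and miR-26, which in mammals delays the differentiation of smooth muscle cells, had -0.33 (adjusted p = 0.308). miR-221, miR-222, miR-24 and miR-29 lay between -0.69 and 0.09 by their most abundant entries, none of them called. Where 257 of all 1807 tested entries were called lower and 51 higher, the 169 of these 7 families had 7 lower and 4 higher. The higher ones were names of miR-222b that share 1 set of values, among them dre-miR-222b (1.34, adjusted p = 0.0340), and the lower ones included the rare gga-miR-26a-3p (-1.79, adjusted p = 0.0202) and fru-miR-24-5p (-1.57, adjusted p = 0.0386), all chosen after their values were seen.

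Most of the tested families of striated muscle moved with the pair. Of 4 tested, 3 were called lower in large fish, miR-1, miR-133 and miR-206, with log2 fold changes of -2.45, -1.77 and -1.95, and miR-499 was not called (-0.51). The most abundant entries of the 4 families summed to 2381 to 6661 CPM in large fish and 10599 to 17520 CPM in small fish, and none of these 4 was at 0 in any library. Over all their tested entries, 69 of 83 were called lower and 0 higher. Of all 1807 tested entries, 257 were called lower and 51 higher. miR-208, listed with the striated muscle families, was not analysed here. All 3 leukocyte families (miR-150, miR-142 and miR-223) were called higher, with 26 of their 36 tested entries, and their summed level ran at 9374 to 11700 CPM for large fish, against 3283 to 4506 CPM for small fish. The part of either group of families in the lower CPM of miR-143 and miR-145 was not tested. The erythroid families miR-144 and miR-451, the endothelial miR-126 and the hepatic miR-122 were not called. In plasma, fewer exosomes from a cell type and fewer copies in each exosome cannot be told apart.

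**Figure D4:**
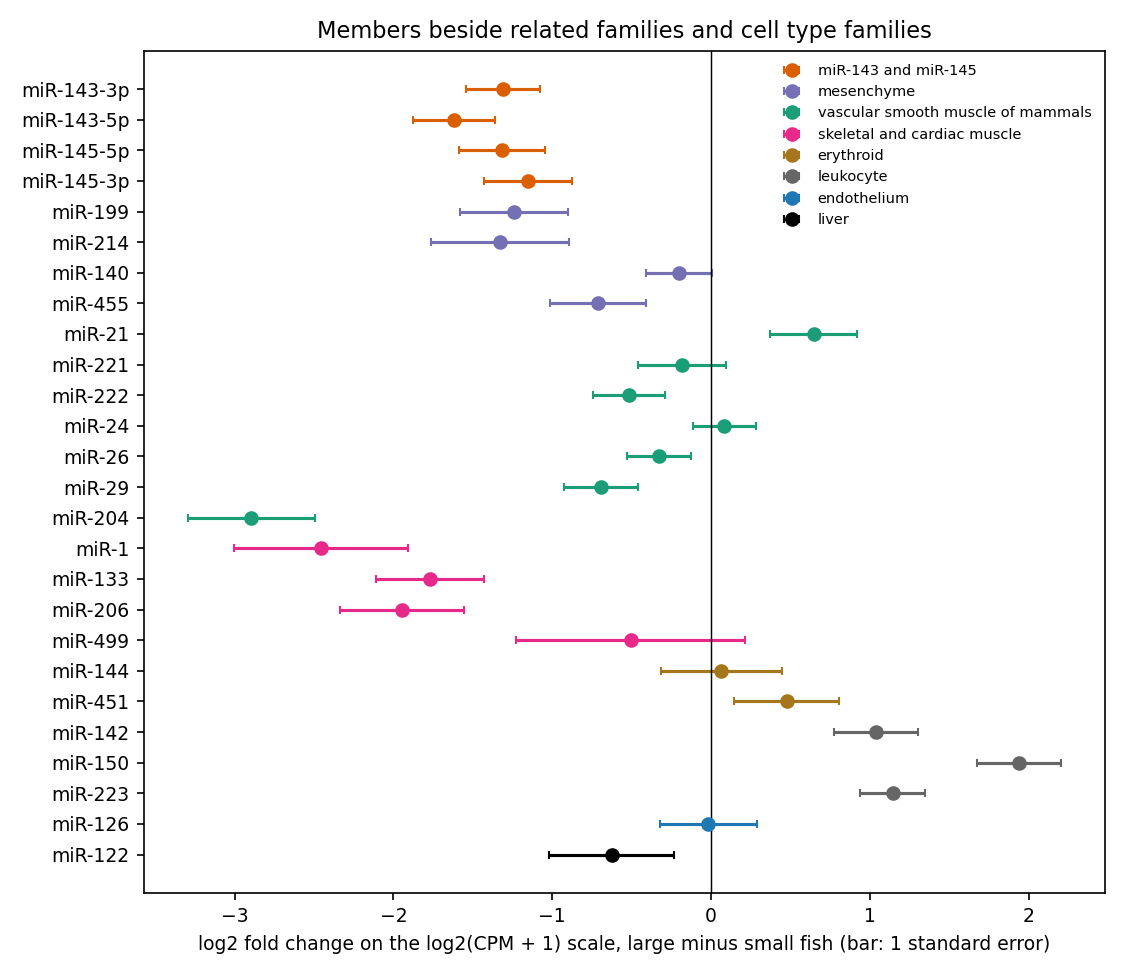
Log2 fold change, large minus small fish, with bars of 1 standard error, for the 4 arms of miR-143 and miR-145 above the most abundant entry of each related or cell type family, coloured by list. The 4 arms lie between -1.62 and -1.15, as do miR-199, which was called, and miR-214, which was not. miR-133, miR-206, miR-1 and miR-204 lie further down, miR-133 at -1.77 and miR-204 lowest at -2.89. The leukocyte families lie between 1.04 and 1.94.

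The levels of 63 families with a mean of at least 100 CPM were ranked by their Pearson correlation with each partner over the 6 libraries, on log2(CPM + 1). miR-133, of striated muscle, ran most like both, at 0.99 with miR-143 and 0.95 with miR-145, where the median family had 0.24 and 0.18. It had 61.5, 75.8 and 146 CPM in large fish, against 270, 352 and 292 CPM in small fish, with L1 lowest, L3 highest of the large fish and S2 highest of all, the order seen for the pair. Next for miR-143 were miR-206 (0.97), miR-152 (0.96), miR-148 (0.96) and miR-196 (0.93). Next for miR-145 were miR-206 (0.94), miR-1 (0.92), miR-152 (0.89) and miR-148 (0.89). All of these were called lower in large fish, so each correlation includes the difference between the groups. Some names of miR-148 and miR-152 had the same log2 fold change and mean level, as rno-miR-148b-3p and fru-miR-152 did (-1.06 each). These families are therefore not shown to be separate measurements.

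With the group means taken away, miR-133 was again first for both partners, at 0.95 with miR-143 and 0.69 with miR-145, where the median family had -0.30 and -0.39. miR-26 (0.83), miR-206 (0.82), miR-152 (0.78) and miR-148 (0.75) followed for miR-143. miR-206 (0.68), miR-1 (0.63), miR-457 (0.51) and miR-451 (0.46) followed for miR-145. These rest on 6 libraries that share their totals, and are a description, in which miR-152 and miR-148 again need not be separate.

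**Figure D5:**
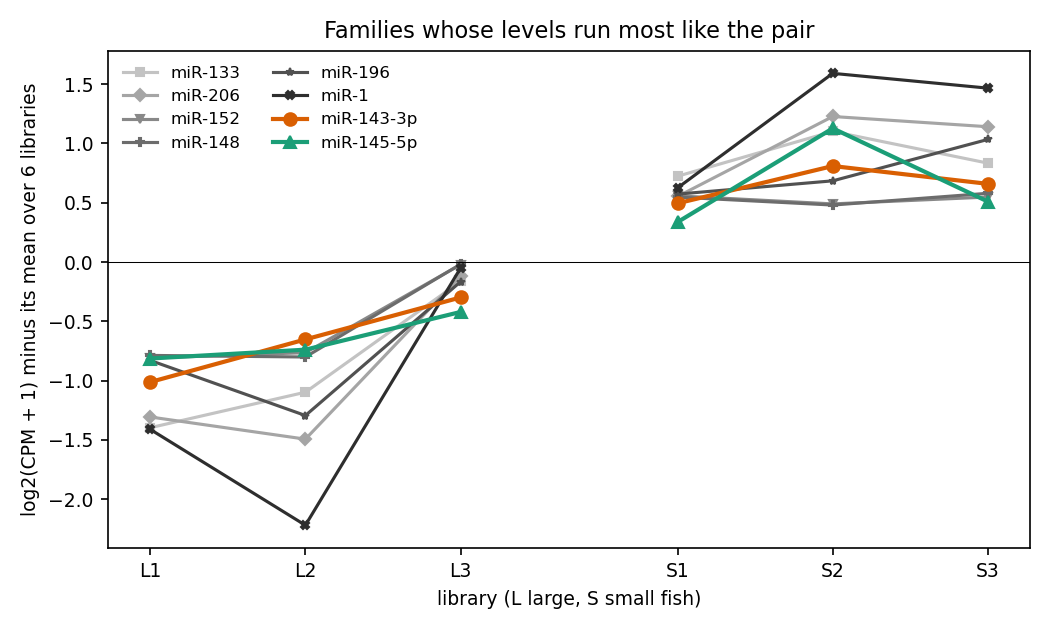
log2(CPM + 1) minus its mean over the 6 libraries, for miR-143-3p and miR-145-5p (colours) and the families most like either of them (greys), large fish libraries left of small fish libraries. Every line lies below 0 in L1, L2 and L3 and above 0 in S1, S2 and S3, and both partners have L3 as their highest large fish library and S2 as their highest small fish library.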

How the data were processed

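Exosomes were isolated from pooled plasma, and 3 ng of their RNA went into each small RNA library, built with a kit that adds unique molecular identifiers. The authors kept reads of 15 to 35 nt, removed other RNA classes with Bowtie, matched the rest to miRBase and to the genome of grass carp, and collapsed reads that shared an identifier to 1. The deposited values are CPM, scaled to the sum of all miRNA counts of a library, predicted ones included. The predicted miRNAs were not used here. One read can stand under several names. Dividing by the step of each library gave whole counts for 100% of values (tolerance 0.02). These recovered counts stand behind the ratios and intervals.

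The test was limma 3.58.1 (R 4.3.3) with a trend on log2(CPM + 1), large minus small fish. Entries needed 1 CPM or more in 3 or more libraries, a filter set here. Calls needed an adjusted p no higher than 0.05 with a fold of 1.5 or more, which are thresholds of the study. All ratios, intervals and exact permutation tests were computed with Python 3.11.15. Alternatives were pseudocounts of 0.1 and 10 CPM, no filter and a filter of 10 CPM, TMM and quantile scaling, no trend, edgeR 4.0.16, DESeq2 1.42.0, identical entries counted once, no fold threshold, a replicate block and each library left out. The fits were tested on simulated data. Every distinct set of values was named, by its zebrafish, then medaka name, then a name used in the study, then the first in alphabetical order, and families were named by their place in the fixed lists or among the 5 most alike. The members and lists were chosen with earlier results of these data known.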

Additional observations from a re-analysis of the deposited data

How the results depend on the processing

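The members stayed lower in large fish under every alternative that fitted the 25 tested entries, but the number called lower did not hold. It was 11 after quantile normalization (all of miR-143), 5 by edgeR's quasi-likelihood test, 17 after TMM scaling and 18 by DESeq2. These names held 4, 1, 6 and 7 of the 8 distinct sets tested. Of all tested entries, 5.26%, 1.22%, 9.13% and 10.8% were called lower there, beside 14.2% in the main test. Leaving out 1 library gave 0 to 25, where the share of all entries ran from 0% to 17.1%. Without L3 it was 25, without S1 24 and without S2 17, where 17.1%, 7.13% and 8.55% of all entries were called lower. It was 25 with pseudocounts of 0.1 and 10 CPM (12.2% and 13.2% of all entries), a filter of 10 CPM (19.4%) or no trend (13.1%). It was also 25 with identical entries counted once (14.8%), and with no fold threshold, where the share of all entries was not counted. The filter of 10 CPM admits miR-143-5p and miR-145-3p through the small fish alone. With no filter it was 17 of 27, where 6.46% of all entries were called lower. The replicate block gave 18, beside 10.1% of all entries, and all names of miR-145-3p were lost. Same-numbered libraries share only a number, however (correlations of their deviations of -0.053, -0.059 and 0.019). With 1 library left out, the log2 ratio of miR-143 to miR-145 differed between the groups by -0.138 to 0.12, so it had no stable direction. The arm ratio of miR-143 kept its direction, and p could not fall under 0.1. Depth limits miR-143-5p, with 13 counts in L1. The causes of these shifts were not tested.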
